A study of Homo sapiens with 15 samples.

Results

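The introns described here were those mostly retained in wild-type HCT116 cells, a human colon cancer line. An intron belonged to the set if it was listed for all 4 knockout clones, was longer than 150 and at most 10000 bases and had 1 gene name. In WT it also had to average 10 or more reads of each kind, retained and spliced, and a retention of 50% or more. This gave 2021 introns in 1412 genes, out of 83066 introns listed for all 4 clones and 16662 that passed everything but the retention level. The other 14641 served for comparison. Polyadenylated RNA had been sequenced from 5 groups of 3 libraries. The controls were wild-type HCT116 cells (WT). The clones KO-1 to KO-4 derive from the same line and are labelled bktRNA1-/-, and each of them is 1 isolate. The labels state 3 independent experiments per group, and the level of bktRNA1, a small RNA, was not analysed here. Each library held 17287797 to 35348260 junction reads over the shared introns and 478587 to 966597 over the 2021 introns, with a median of 150 reads per intron and library. Of 14 colon epithelial markers 8 had introns listed (KRT8, KRT18, KRT19, EPCAM, CLDN4, CLDN7, ELF3 and CDX2), against 1 of 7 fibroblast markers (COL1A1), 0 of 6 immune and 0 of 5 endothelial markers.

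Splicing removes introns in the nucleus. Some transcripts keep an intron, which holds them in the nucleus or exposes them to decay when the intron carries a stop codon. Genes for splicing factors, such as the SR proteins and CLK kinases, are known for introns of this kind, which respond to the level of their own product. Most introns are removed by the major spliceosome, and a rare class, the U12-type, by the minor spliceosome, which recognises longer and stricter motifs. Retention was measured as reads over the 2 exon-intron boundaries against reads spliced across the intron, each divided by the number of positions that can yield such a read. A boundary that lies inside an exon of another transcript form yields the same boundary reads from that form. High values can therefore come from a rarely used alternative splice site as well as from an intron left in, and these cannot be told apart in boundary counts.

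The ends of some of these introns show what the set holds. They are printed 5′ to 3′ on the transcribed strand from GENCODE 29 transcripts (hg38, the build of the files), with the first 8 or the last 2 intron bases in capitals. Those of SPCS2, NCBP2 and RECQL5 are shown because retention was lower in several clones, and those of KRT19 and RPS7 because it was among the highest. HNRNPH1, an RNA-binding protein gene, and SNHG1, a host of small nucleolar RNAs, stand for introns with an end only in exons of annotated retained-intron transcripts. UBB, a polyubiquitin gene, stands for a repeat.
SPCS2 intron 2, 5′ end, shared by both forms, chr11:74965108-74965137, plus strand: tgccaaaaagGTACTTTCttgaggaggggt
SPCS2 intron 2, 3′ end of the shorter form, chr11:74969586-74969615, plus strand: tctgaccatttatacctcatataAGgagaa
SPCS2 intron 2, 3′ end of the longer form, chr11:74969615-74969644, plus strand: agagcatctttctcgtggcccacAGgaaag
NCBP2 intron 2, 5′ end, chr3:196939373-196939402, minus strand: aagaaaagctGTACGTTAtatgttggaaat
NCBP2 intron 2, 3′ end, chr3:196937627-196937656, minus strand: tacttaagatattactcacgcgcAGatgcg
RECQL5 intron 1, 5′ end, chr17:75667024-75667053, minus strand: gccggttctgATATCTTAgggtgaagagag
RECQL5 intron 1, 3′ end, chr17:75666567-75666596, minus strand: taccttTGCCTTAACctttggccACtgttc
KRT19 intron 1, 5′ end, chr17:41527901-41527930, minus strand: cgagctagagGTGAAGATccgcgactggta
RPS7 intron 3, 3′ end, chr2:3576534-3576563, plus strand: cgttcctcaactgaaatctttccAGaaaat
HNRNPH1, 5′ end, chr5:179617001-179617030, minus strand: atgggtttgtGTAAATATcactttagtgtc
SNHG1 intron 3, 5′ end, chr11:62855113-62855142, minus strand: aatgttccagGTAGGTGTacatggtttatg
UBB intron 2, 5′ end, chr17:16382121-16382150, plus strand: cgtctgagagGTGGTATGcagatcttcgtg
UBB intron 2, 3′ end, chr17:16382334-16382363, plus strand: ctgcacctggtcctgcgtctgagAGgtggt

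RECQL5 is the exception among those printed. Its intron begins with AT and ends with AC, as a subclass of U12-type introns does. Its first 8 bases differ at 2 places from the nearer of ATATCCTT and GTATCCTT, and the capitals before its 3′ end mark 9 bases that differ at 1 place from TTCCTTAAC. NCBP2, RPS7 and HNRNPH1 also come within 1 mismatch of it in their last 40 bases. RECQL5 was not counted as U12-type, since the rule allowed 1 mismatch at the start and 2 from TTCCTTAAC in the last 40 bases, read on the transcribed strand only. Both ends could be read for 1036 of the 2021 introns, of which 3 passed that rule (0.290%), beside 40 of 4397 other introns (0.910%). The 3 lie in SRSF10, NR2C2AP and GIGYF1. GT-AG ends made up 97.2% of the introns read and 98.8% of the others, GC-AG ends 2.41% and 0.796%, and AT-AC ends 2 introns of 1036 and 13 of 4397. The 6 letters GTAAGT, which pair with U1 small nuclear RNA, stood in full at the start of 5.82% of 1340 introns readable there, against 9.61% of 6668 others.

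Most of these introns overlapped an annotated exon of another transcript on the same strand. Exons were matched by strand and not by gene, so an exon of another form can belong to a different gene. In 610 (30.2%) both ends lay inside exons of other forms, in 429 (21.2%) only the 5′ end and in 510 (25.2%) only the 3′ end. Together that is 1549 introns, or 76.6%, beside 34.7% of the others. A further 284 (14.1%) had 1 or both ends inside exons of transcripts annotated as retained introns only, against 30.5% of the others. Such exons need not span the whole intron. Another 127 (6.28%) held no annotated exon on their own strand, against 28.6%. Over the whole set 14.4% overlapped an annotated exon on the other strand, against 9.16% of the others. Whether the counting used strand is not stated in the sources. The share with an end in another exon was highest at the top: of 322 introns at 90% or more in WT, 121 had both ends so placed, 80 the 5′ end and 107 the 3′ end, while 5 held no exon. The annotation places 16.2% between non-coding exons, 23.2% in 5′ untranslated parts and 10.3% in 3′ untranslated parts of their transcripts, where the others had 2.84%, 7.91% and 2.07%. In 590 (29.4%) the splice was annotated only in transcripts that are not protein coding, 195 of them (9.73% of 2004 annotated introns) only in forms subject to nonsense-mediated decay, against 3.99% and 0.677%. First introns made up 32.8% against 13.6%. Length and base composition were close in both sets, with medians of 817 and 892 bases and, where the whole intron could be read, 53.6% and 54.9% G and C. Introns are not replicates, so these shares are given as counts with no test.

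**Figure D1:**
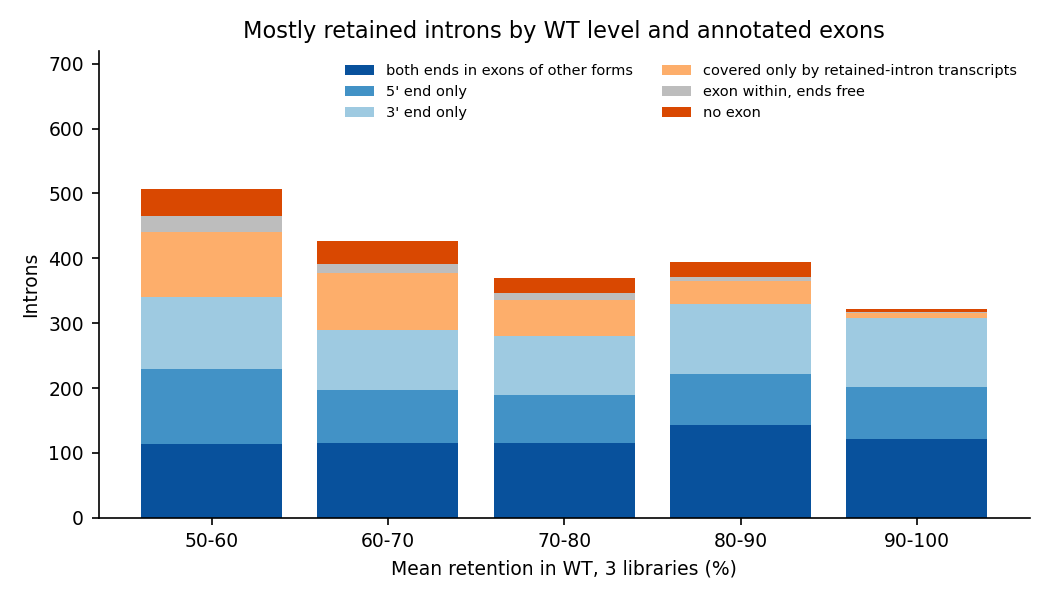
Stacked bars count the 2021 introns by mean WT retention (x axis, percent, 3 libraries) and by where annotated exons of other transcripts lie. Introns with an end only in exons of retained-intron transcripts, labelled as covered by them, shrank from 99 at 50 to 60% to 7 at 90 to 100%. Those with both ends inside exons of other forms numbered 114 and 121.

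Spliced reads chose these introns together with retained reads, so low junction use within the gene is in part built into the set and is given as a description. Spliced reads in WT came to a median of 7.45% of those of the most spliced listed intron of the same gene (1895 introns of genes with at least 3 other introns listed), against 69.7% for 13840 others. In 1139 of 1895 introns (60.1%) the share was 10% or less, and in 62 (3.27%) it was 50% or more, against 4.80% and 75% of the others. The median retention of the other listed introns of their genes was 4.64%, against 2.02% for the others, with upper quartiles of 27.6% and 6.32%. A start or an end was shared with another listed intron in 1710 cases (84.6%, against 34.2%), and in 1438 (71.2%, against 10.5%) that intron had more spliced reads. Introns with no annotated exon had a median use of 12.5% of the gene's most spliced intron, and those with an end only in retained-intron forms 5.26%. LAMA5, a laminin chain gene, held the no-exon intron with the most retained reads, at 96.1% in WT on a mean of 905 retained and 18.7 spliced reads. It was picked after its value was seen.

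**Figure D2:**
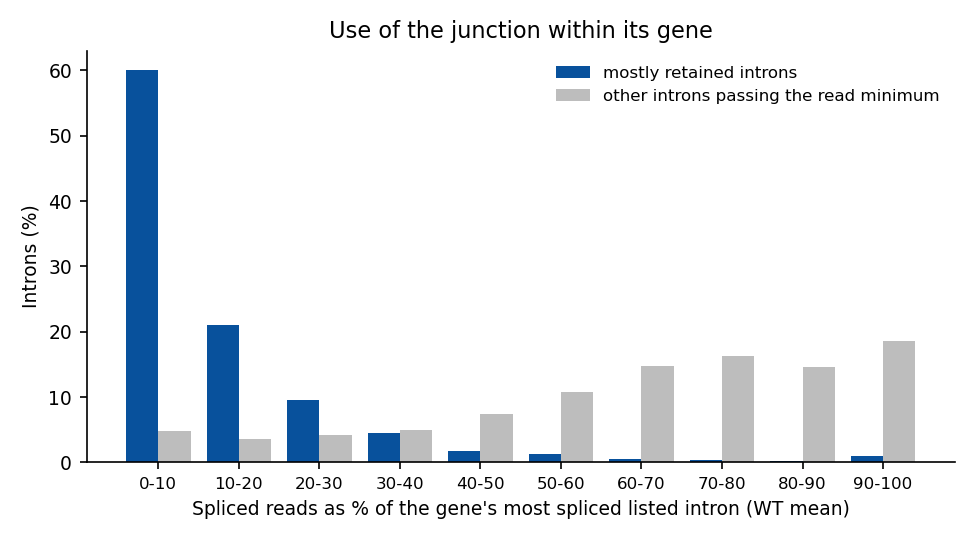
Bars give the percent of introns (y axis) in each range of spliced reads relative to the most spliced listed intron of the gene (x axis, percent, WT mean), for the mostly retained introns and for the others. The lowest range holds most of the former, and ranges above 50% hold 3.27% of them.

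The rule asks for 10 spliced reads on average, so the highest levels could occur only in introns with many retained reads, and the abundance of these messages is no finding. RPLP2, a stalk protein of the ribosome, had 99.8%, 99.8% and 99.6% retention in the 3 WT libraries at intron 1 (chr11:810322-811596), from a mean of 9032 retained and 11.3 spliced reads. KRT19, an epithelial keratin, stood at 99.7% ± 0.047 (SD, n = 3) with 11 spliced reads a library. RPLP0, RPS3, RPL15 and RPS7, all ribosomal proteins, had means of 99.7%, 99.6%, 99.5% and 99.4%. The glycolytic enzyme gene ALDOA reached 99.5%, the translation helicase gene EIF4A1 99.4%, the nascent chain factor gene NACA 99.4% and the peroxidase gene GPX1 99.3%. In KRT19, RPLP2 and RPS3 the 5′ end lies inside an exon of another form, in RPLP0, RPS7 and NACA the 3′ end, and in the other 4 both ends. KRT19 shows the sequence behind this: its 5′ end printed above lies within an exon, and the splice there was used in 0.188% of the reads of the most spliced intron. The clone means of these 10 introns lay between 98.7% and 99.8%, and none of the 10 passed in a comparison with WT for which it was tested (RPLP2 and ALDOA had too few spliced reads in 3 and 2 clones). NACA passed the test among clones (adjusted p = 0.0143), at 98.9% in KO-1 and 99.4% to 99.5% in the others, but not without the KO-1 library listed 2nd or 3rd (0.165 and 0.0834).

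At the lower edge the WT libraries straddled the limit. RPL3 (chr22:39317022-39317460), just inside, had 48.6%, 48.5% and 52.9% in WT, LINC00662 56.5%, 43.6% and 50%, and RPS6 58.6%, 46.7% and 44.8%. Just outside were WDR55 at a mean of 49.99%, PGS1 at 49.99% and RPL27A (chr11:8683266-8683862) at 49.96%. Between 50 and 60% lay 507 introns, 427 between 60 and 70%, 370 between 70 and 80%, 395 between 80 and 90% and 322 above. Most genes, 1020, had 1 such intron, 256 had 2 and 136 had more. EEF1D, of translation elongation, had 9 of its 14 introns that passed the read minimum, RPL17 7 of 8, EIF1AD 6 of 6, HMGN1 6 of 10 and the kinase gene CDK10 6 of 14. Many of these overlap or share an end, so they are not separate events. RPL17 ranged from 62.8% to 97.3% over its 7 introns and CDK10 from 51.7% to 92.3%.

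Over the whole set the groups had close medians. The median over the 2021 introns was 72.6%, 70.8% and 74.6% in the WT libraries, a mean of 72.6% ± 1.9 (SD, n = 3). KO-1 had 74.7% ± 0.46, KO-2 74.7% ± 0.70, KO-3 73.4% ± 0.49 and KO-4 74.9% ± 0.32. Of these the KO-3 libraries (72.8% to 73.8%) lay inside the WT range, and the rest overlapped it. Per intron, the median change from WT was 0.39, 0.46, -0.0061 and 0.91 percentage points in the 4 clones in order, with 46.2%, 44.4%, 50.1% and 40.7% of introns below WT. The middle 90% of changes ran from -10.7 to 11.6 points in KO-1 and from -8.89 to 12.4 in KO-4. Above 90% retention the median changes were between -0.11 and 0.19 points. Of the 2021 introns 1734 stayed at 50% or more in all 4 clones and 24 were below it in all 4.

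Introns chosen for a high WT level tend to read lower when measured again, and the same WT libraries serve as control, so a held-out library was used to show the size of this. With members chosen on 2 WT libraries, the library left out differed from them by a median of 0.21 points (listed 1st), -1.16 (2nd) and 1.75 (3rd). At 50 to 60%, closest to the limit, the differences were -0.32, -3.48 and 3.65 points. The library listed 2nd was also low, and that listed 3rd high, in the introns below 50% (medians of 4.96% and 6.88%, with 5.96% in that listed 1st). Against a held-out WT library the clone changes followed that library: KO-1 had 0.19, 1.06 and -0.74 points, KO-2 0.33, 1.33 and -0.60, KO-3 -0.15, 0.59 and -1.08, and KO-4 0.65, 1.71 and -0.19. The sign thus turned with the WT library in all 4 clones, and every median change was smaller than the SD of the WT medians.

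**Figure D3:**
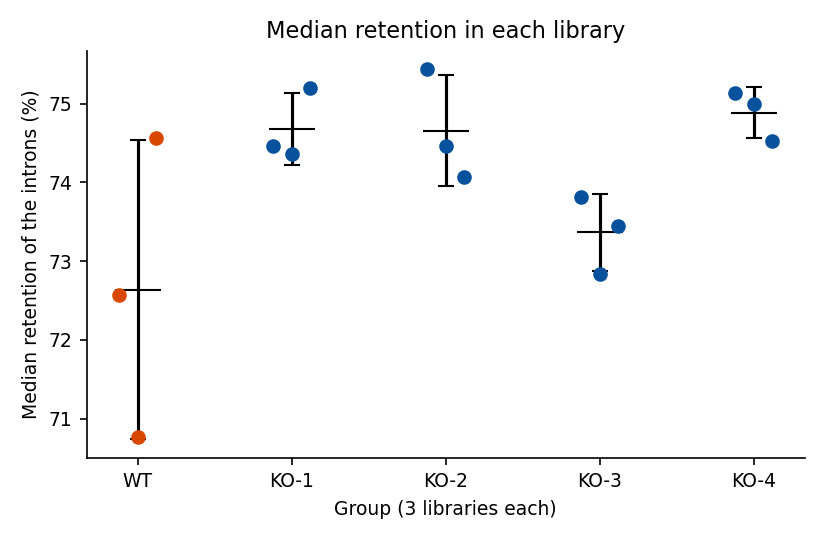
Points give the median retention (y axis, percent) of the 2021 introns in each of the 15 libraries, by group, with the mean and SD of 3 libraries in black. The WT libraries span 70.8% to 74.6%, and the clone libraries 72.8% to 75.4%.

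Each clone was compared with WT intron by intron in a fit over all introns tested. The WT libraries also chose the members, so the calls are a description and nothing is read from the balance of directions. In KO-1, 7 of 1680 tested members were called higher and 9 lower, where 1.29% of all introns tested were called higher and 0.175% lower. KO-2 had 11 higher and 13 lower of 1891 (1.3% and 0.304% of all), KO-3 2 and 9 of 1864 (0.558% and 0.155%), and KO-4 13 and 22 of 1873 (1.54% and 0.429%). The median change over all tested introns was 0.13, 0.09, 0.02 and 0.16 log2 odds. With each library centred on its own median log odds over the tested introns, the splits were 3 higher and 18 lower, 6 and 19, 1 and 11, and 4 and 36. In all, 1628 of the 2021 introns were tested in every clone and 46 in none. 63 were called in at least 1 clone, 26 higher and 37 lower, and none in both directions. The matching share over all introns is not given here, so the overlap between clones is a description only. The 4 comparisons share the WT libraries. An alternative test, limma on log2 odds, left few: 2 higher and 1 lower in KO-1 and 0 in the other 3 clones. There, at an unadjusted p of 0.05, limma had 122, 57 and 129 higher and 78, 69 and 62 lower, and the quasi-binomial test 115, 44 and 117 higher and 91, 82 and 81 lower. Below, unless limma is named, p-values come from the quasi-binomial test, and changes are in log2 odds of retention with their SE. Limma kept 2 of the 43 calls of introns named by rule, CLDN7 and FGFR1 in KO-1.

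SPCS2, a subunit of the signal peptidase complex that trims secreted proteins, was the 1 gene with introns called lower in all 4 clones. Its pair of introns shares the 5′ end printed above and differs in the 3′ end, which lies inside an exon of another form. The shorter form (chr11:74965118-74969610) had 85.6%, 88.4% and 89.8% in WT. KO-1 had 70.3%, 66.6% and 75.2%, KO-2 71.1%, 73.8% and 75.6%, KO-3 80.9%, 81.7% and 74.5%, and KO-4 79.3%, 78.8% and 78.2%. All 12 clone libraries lay below all 3 WT libraries. From KO-1 to KO-4 the log2 odds fell by 1.62 (SE 0.22, adjusted p = 1.1e-07), 1.39 (SE 0.21, adjusted p = 1.7e-06), 0.95 (SE 0.22, adjusted p = 0.0139) and 0.97 (SE 0.21, adjusted p = 0.0022). The call in KO-3 was lost without the WT library listed 2nd (adjusted p = 0.0968) or the KO-3 library listed 3rd (0.260). The longer form (chr11:74965118-74969639) shares most of its boundary reads, and fell from 92.4% ± 1.0 to 83.0% ± 1.3, 83.7% ± 3.2, 85.7% ± 0.48 and 86.7% ± 2.2 (n = 3 each). Its p was 6.5e-04, 6.2e-04, 0.0190 and 0.0335. In KO-3 this was lost without the WT libraries listed 1st or 2nd (0.0721 and 0.168) or its own listed 1st or 2nd (0.112 and 0.0788), and in KO-4 without the WT libraries listed 1st or 2nd (0.0944 and 0.194) or its own listed 2nd or 3rd (0.241 and 0.0959). In WT the spliced reads of the shorter and longer form were 5.03% and 3.25% of those of the gene's most spliced intron. Limma gave adjusted p values of 0.0829 to 0.501 for the pair.

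RECQL5, a RecQ family DNA helicase, fell in 3 clones in the AT-AC intron printed above (intron 1 of 19, chr17:75666572-75667043, in the 5′ untranslated part). WT had 79.6%, 62.4% and 60%. KO-2 had 36.7%, 32.3% and 35.2%, KO-3 31.9%, 45.6% and 41.0%, and KO-4 22.3%, 27.0% and 30.9%, all below every WT library. KO-1 had 81.6%, 52.1% and 46.3%, which overlapped WT (log2 change -0.53, SE 0.42, adjusted p = 0.711). KO-2 fell by 1.85 (SE 0.36, adjusted p = 3.4e-04), KO-3 by 1.56 (0.38, 0.0208) and KO-4 by 2.40 (0.35, 1.3e-07). KO-3 did not pass without the WT library listed 1st (0.222) or its own listed 1st or 3rd (0.381 and 0.0566). Both ends lie in exons of other forms, on a WT mean of 89.3 retained and 23.3 spliced reads.

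NCBP2, the smaller subunit of the nuclear cap-binding complex, had 92.9%, 91.3% and 91.0% in WT at intron 2 (chr3:196937632-196939392). KO-1 had 82.3%, 82.2% and 85.6% and KO-3 82.8%, 83.6% and 83.3%, below all WT libraries, with a fall of 1.16 in each (SE 0.23 and 0.22, adjusted p = 8.8e-04 and 5.1e-04). KO-2 (91.0%, 88.0% and 88.4%) and KO-4 (88.3%, 91.7% and 86.3%) had adjusted p = 0.405 and 0.355. JUP, the plakoglobin of cell junctions, had 59.3%, 54.5% and 59.3% in WT at its last intron (chr17:41755433-41755729, 3′ untranslated part). It fell to 38.1%, 38.7% and 36.8% in KO-1 (by 1.14, SE 0.14, adjusted p = 2.6e-08) and 46.5%, 45.8% and 53.0% in KO-4 (by 0.52, SE 0.12, adjusted p = 0.0029, but 0.0645 without the KO-4 library listed 2nd). MDK, the growth factor midkine, fell at intron 1 from 59.2% ± 2.6 to 44.9% ± 5.8 in KO-1 (adjusted p = 0.0181) and 47.4% ± 0.81 in KO-2 (adjusted p = 0.0315). In KO-1 this was lost without its library listed 1st or 3rd (0.0925 and 0.306), and in KO-2 without any 1 of the 6 libraries (0.0683 to 0.129). At intron 5 of TMEM106C, which encodes a membrane protein, 53.1% ± 3.3 in WT compared with 42.9% ± 1.0 in KO-2 (adjusted p = 0.0064) and 44.7% ± 3.1 in KO-4 (adjusted p = 0.0319). The first was lost without the KO-2 library listed 3rd (0.0567), and the second without the WT libraries listed 1st or 3rd (0.0660 and 0.0938) or the KO-4 libraries listed 1st or 2nd (0.0908 and 0.281). Of 8 introns called lower in 2 clones, FDPS, CLDN7, RAC3 and AL138789.1, described below, did not move 1 way in every clone. FDPS was lower in KO-3 and KO-4 (adjusted p = 6.6e-06 and 6.9e-12) and CLDN7 in KO-1 and KO-2 (7.1e-06 and 0.0022). RAC3 (0.0163 and 4.6e-07) and AL138789.1 (1.1e-04 and 2.4e-06) were lower in KO-2 and KO-4. The RAC3 call in KO-2 ended without the WT library listed 3rd (0.0563) or any 1 of its own (0.0535 to 0.0891).

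The introns called higher in several clones follow, and their number beside those called lower is not read as a result. HARS2, a mitochondrial histidyl-tRNA synthetase, was the 1 intron higher in 3 (intron 6, chr5:140695846-140696520). WT had 60%, 42.4% and 56.5%. KO-1 had 93.0%, 78.9% and 81.2%, KO-2 85.8%, 83.7% and 71.0%, and KO-4 81.1%, 80.6% and 77.9%, all above WT. KO-3 had 78.9%, 59.4% and 60%, which overlapped WT. The changes were 2.29 (SE 0.63, adjusted p = 0.0134), 1.86 (0.49, 0.0184), 0.85 (0.42, 0.601) and 1.88 (0.45, 0.0059) in KO-1 to KO-4. Without the WT library listed 2nd, the lowest, p was 0.102, 0.248 and 0.141 in the 3 clones. KO-1 also failed without any 1 of its own libraries (0.249, 0.0692 and 0.0585), KO-2 without its own listed 1st or 2nd (0.177 and 0.114) and KO-4 without its own listed 2nd (0.0502). The mean was 54 retained and 25.3 spliced reads in WT.
SEC13, of the COPII coat and the nuclear pore, had 75.3%, 71.2% and 71.6% in WT at its last intron (chr3:10301148-10304025) and 85.5%, 84.7% and 83.6% in KO-1 (change 1.05, SE 0.29, adjusted p = 0.0280). KO-2 had 85.1%, 81.4% and 84.6% (0.95, SE 0.24, adjusted p = 0.0171), while KO-3 and KO-4, at means of 80.4% and 79.5%, did not pass (adjusted p = 0.392 and 0.247). All 12 clone libraries lay above WT. Centring ended both calls (adjusted p = 0.138 and 0.0632), as did leaving out the WT library listed 2nd (0.0692 and 0.103), any 1 KO-1 library (0.107 to 0.215) and the KO-2 libraries listed 1st or 3rd (0.120 and 0.0836). AL589666.1 rose from 69.2% ± 2.95 to 78.6% ± 0.24 in KO-3 and 77.5% ± 0.38 in KO-4 (adjusted p = 0.0458 and 0.0487), and both calls ended when centred (0.139 and 0.359). They also ended without the WT library listed 1st (0.168 and 0.142) or 3rd (0.149 and 0.0968) or any 1 library of the clone (0.113 to 0.219). FGFR1, a growth factor receptor, was called higher in KO-1 and KO-4 (adjusted p = 0.0187 and 0.0348). In KO-1 this ended without the WT library listed 1st (0.0693) or any 1 of its own (0.0917 to 0.156), and in KO-4 without the WT libraries listed 1st or 2nd (0.134 and 0.170) or any 1 of its own (0.0879 to 0.182). Of 5 introns higher in 2 clones, RPL10 and ENY2 did not move 1 way in all. RPL10 (62.7% ± 5.4 in WT) passed in KO-2 and KO-4 (adjusted p = 0.0040 and 0.0032). Both calls ended without the WT library listed 2nd (0.130 and 0.0995), and that in KO-4 when centred (0.0713). Each also ended without certain libraries of its own clone (0.0532 to 0.0854). ENY2, added after its values were seen, passed in the same clones (adjusted p = 0.037 in each).

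**Figure D4:**
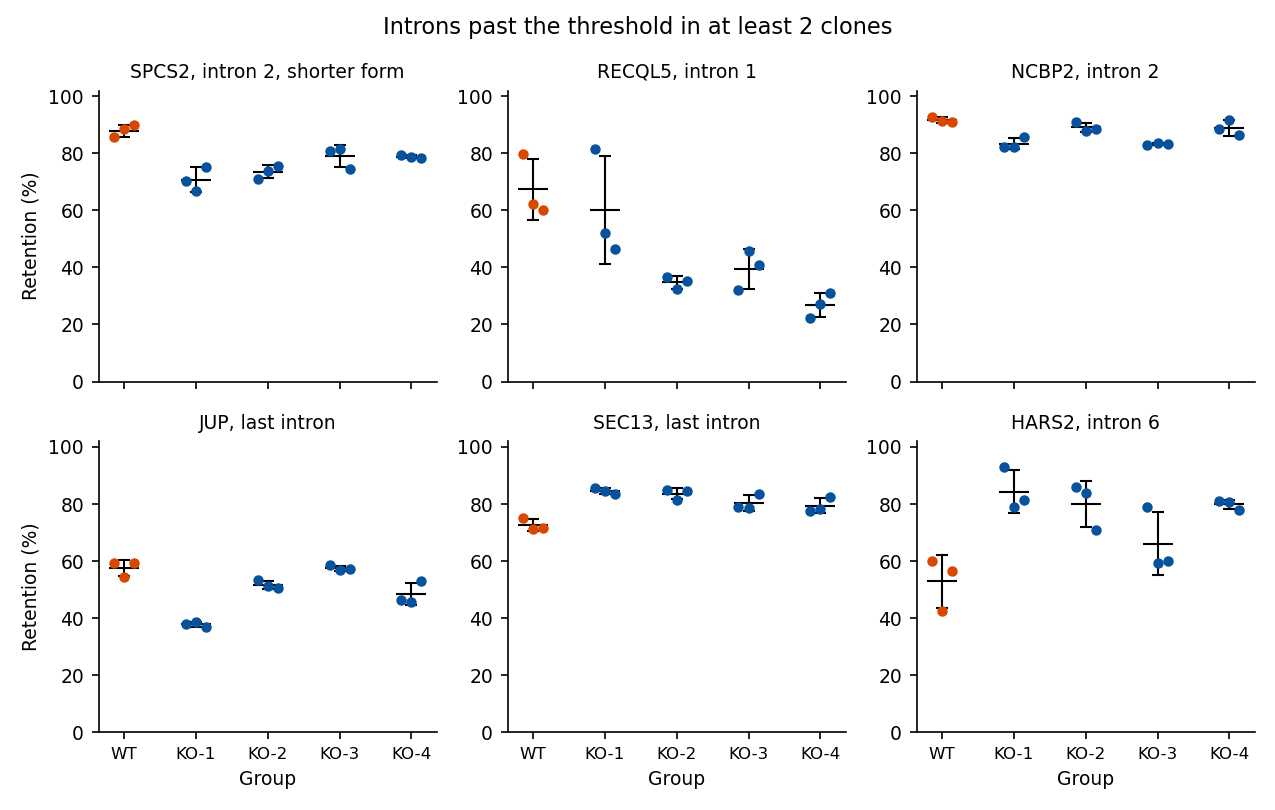
Points give retention (y axis, percent) in each library by group for 6 introns called in at least 2 clones, with the mean and SD of 3 libraries in black. SPCS2 lies below WT in all 12 clone libraries and SEC13 above it, RECQL5 is low in KO-2, KO-3 and KO-4, and JUP is lowest in KO-1 (37.9%).

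The retention levels of the 12 clone libraries took no part in the choice of introns, so the test among the 4 clones uses values that the level limit did not. Their read numbers did take part, since an intron had to be listed for every clone. Retention differed among clones in 114 of 1746 members tested, or 6.53%, where 6.41% of all 21223 introns tested and 6.90% of the introns below 50% did. The members thus stood near the background. The range of the 4 clone means over the 114 introns had a median of 13.8 percentage points, from 0.68 to 40.1. KO-3 was lowest in 47 of them, and KO-1, KO-2 and KO-4 in 21, 19 and 27. KO-4 was highest in 33, KO-2 in 32, KO-3 in 25 and KO-1 in 24. Limma on log2 odds called 11. With KO-1 left out, 88 differed among the other 3 clones. The called introns fell in every class of exon overlap. They were 36 of 540 tested with both ends in other exons, and 22 of 365 and 23 of 436 with the 5′ or the 3′ end. A further 18 of 241 had an end only in retained-intron forms, 6 of 54 an exon only inside and 9 of 110 no exon. The 10 strongest, at most 1 a gene, follow by what their genes do.

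CLDN7 and FDPS act at cell contacts and in isoprenoid synthesis. CLDN7, a tight junction claudin and one of the epithelial markers, had 79.3%, 73.2% and 72.2% in KO-1 and 85.2%, 84.9% and 83.4% in KO-2 at intron 1 (chr17:7262344-7263158). KO-3 had 95.1%, 96.7% and 94.4% and KO-4 91.4%, 90.7% and 92.8%, so the 4 clones did not overlap (adjusted p = 1.0e-10), and WT stood at 93.9% ± 0.79. FDPS, the farnesyl diphosphate synthase of the mevalonate pathway, had 87.0%, 84.9% and 82.2% in KO-1 and 81.4%, 78.0% and 83.2% in KO-2 at intron 1 (chr1:155309077-155310063). KO-3 had 74.8%, 72.3% and 75.5% and KO-4 70.6%, 72.5% and 71.5%, with adjusted p = 2.5e-13, and all 6 of these libraries lay below those of KO-1, KO-2 and WT (84.0% ± 0.83). A longer FDPS intron with the same 3′ end (chr1:155308966-155310063) had means of 65.7%, 62.2%, 67.3% and 61.1%, an order unlike that of the shorter form. It was added after its values were seen. JUP, described above, ranged from 37.9% in KO-1 to 57.5% in KO-3 (adjusted p = 7.1e-10). RAC3, a small GTPase, was measured at intron 1 (chr17:82031797-82032386). KO-1 had 39.9%, 48.4% and 43.4%, KO-2 41.9%, 40.4% and 40.5%, KO-3 60.7%, 55.6% and 58.8%, and KO-4 26.9%, 38.7% and 37.4%. KO-3 was above all other libraries and KO-4 below them (adjusted p = 5.1e-15). WT had 48.7%, 48.9% and 54.0%, above KO-4 throughout.

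SRSF2, LUC7L3, SNHG1 and RPL10 belong to splicing and ribosome production. SRSF2, an SR protein whose 3′ untranslated introns are a known part of its self-regulation, had 77.0%, 82.3% and 80.7% in KO-3 at its last intron (chr17:76734563-76735060), below every library of the other clones (84.0% to 86.5%, adjusted p = 9.8e-08). LUC7L3, a U1-associated protein, had 61.1%, 59.3% and 60.1% in KO-2, above the means of 49.7% (KO-1), 53.4% (KO-3) and 49.3% (KO-4) (chr17:50750695-50752199, adjusted p = 1.2e-08). SNHG1 had 81.6%, 72.8% and 80.1% in KO-2 and 58.2%, 60.1% and 52.3% in KO-3 at intron 3 (chr11:62854552-62855132, adjusted p = 2.4e-08), with KO-1 at 65.3% ± 5.2 and KO-4 at 71.4% ± 4.4. RPL10, a protein of the large ribosomal subunit, had 72.9%, 76.3% and 74.0% in KO-2 and 76.1%, 77.3% and 68.6% in KO-4 (chrX:154399942-154400701). Its KO-1 mean was 64.4% and its KO-3 mean 57.7% (adjusted p = 4.8e-10). SNHG1 and RPL10 have an end only in retained-intron forms, and the other 2 have both ends in exons of other forms.

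AL138789.1 and SENP3 complete the list. AL138789.1, an antisense transcript (whether the counting used strand is not stated in the sources) with 1 intron (chr1:68479310-68482760) and no annotated exon in it, had 65.2%, 67.1% and 65.6% in KO-2 and 62.4%, 61.7% and 64.4% in KO-4. KO-1 had 75.8%, 76.0% and 76.9% and KO-3 86.1%, 88.7% and 87.0%, so the clones did not overlap (adjusted p = 1.1e-14). WT stood between, at 82.6%, 80.7% and 80.3%. SENP3, a SUMO protease, had 99.4%, 99.1% and 98.9% in KO-2 at its last intron (chr17:7571480-7571711), 93.6%, 93.8% and 94.6% in KO-1, 91.3%, 88.8% and 89.1% in KO-3, and 87.1%, 89.2% and 87.4% in KO-4 (adjusted p = 8.1e-11). Limma on log2 odds kept AL138789.1, CLDN7 and SENP3 of these 10, and gave p of 0.0645 to 0.345 for the rest. Each of the 10 passed with any 1 clone library left out. FAT1 and RNPC3 were picked after their values were seen. Of these FAT1, a large cadherin, had the widest range, at chr4:186590404-186595688, from 28.2% ± 3.1 in KO-4 to 68.3% ± 24 in KO-3 (adjusted p = 1.6e-05), where the KO-3 library listed 2nd was at 95.7% and the others at 56.2% and 52.9%. RNPC3, a protein of the minor spliceosome, had 23%, 32.6% and 23.1% in KO-3 at chr1:103551793-103555033. Its means were 43.2%, 55.1% and 44.2% in KO-1, KO-2 and KO-4 (adjusted p = 0.0082 among clones), with 51.3% ± 2.6 in WT. Against WT the KO-3 change did not pass (adjusted p = 0.0936), on a WT mean of 27.7 retained and 13 spliced reads.

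**Figure D5:**
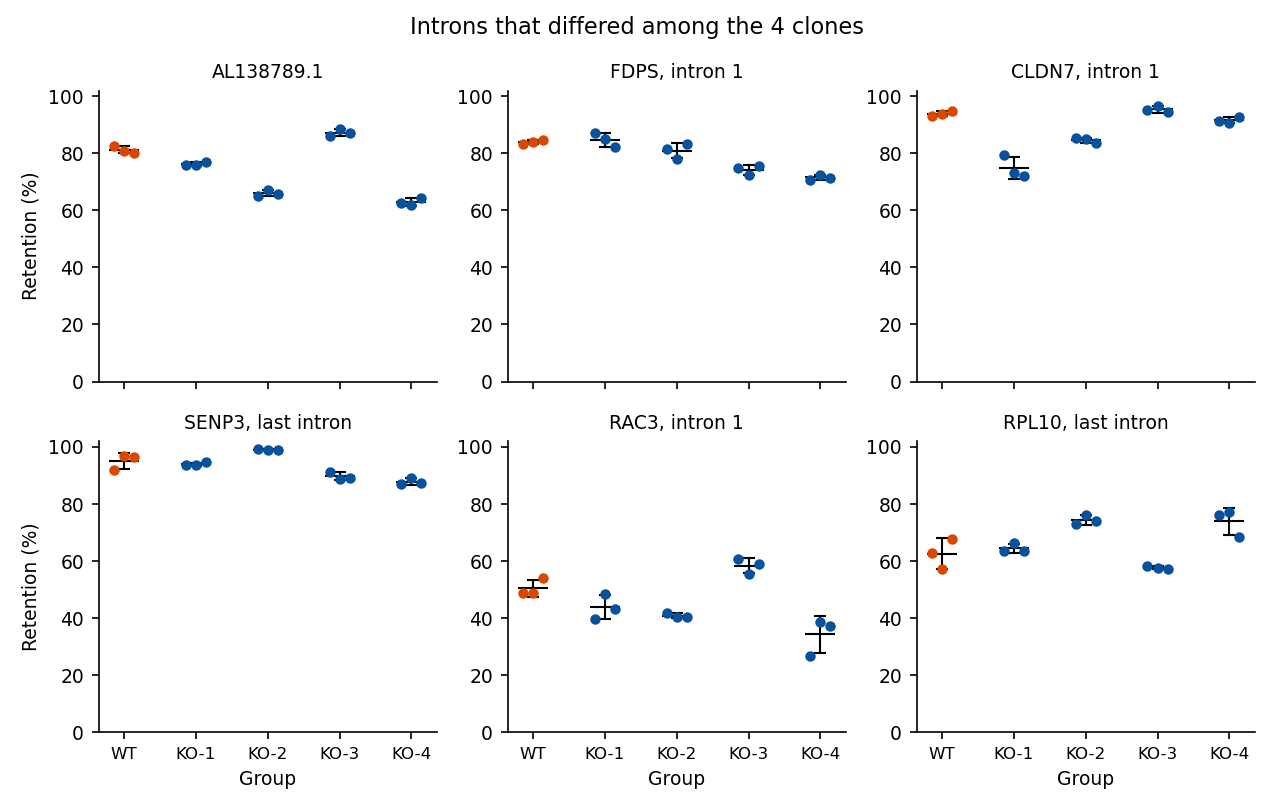
Points give retention (y axis, percent) in each library by group for 6 of the introns that differed most firmly among the clones, with the mean and SD of 3 libraries in black. AL138789.1 and RAC3 are highest in KO-3 and lowest in KO-4, CLDN7 is lowest in KO-1, and FDPS is lower in KO-3 and KO-4 than in KO-1 and KO-2.

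By gene group, SR protein genes held the largest share of the 14 lists, and hosts of small nucleolar RNAs came next. Of all 16662 introns that passed the read minimum, 12.1% were mostly retained. In SR protein genes it was 25 of 66 (37.9%), in 12 of 13 genes listed, with a median WT level of 80.5% beside 72.2% over all members. Among these 25, 18 had an end inside an exon of another form, as did 1549 of all 2021, and 4 held no exon. SRSF1, at its last intron, stood at 97.9% ± 0.44 in WT and 97.8% to 98.5% in the clones, and SRSF9 at 96.1% ± 0.19. Of the 25, 1 was called lower (SRSF2 in KO-3, adjusted p = 0.0170, lost without the WT libraries listed 1st or 2nd or the KO-3 library listed 1st at 0.0662, 0.0958 and 0.533), 0 higher, and 2 differed among clones. CLK and SRPK kinases had 6 of 29 in CLK1, CLK2 and CLK4, with 0 called in either direction by the quasi-binomial test (2 with an unadjusted p below 0.05 in any clone) or by limma (4). CLK1 at intron 4 had 51.9% ± 5.4 in WT and 60.9%, 64.5%, 62.7% and 55.2% in KO-1 to KO-4 (adjusted p = 0.414, 0.0943, 0.277 and 0.786). Speckle, RBM and LUC7-like proteins had 36 of 177 (20.3%), 1 called higher. The cyclin gene CCNL2 stood at 96.7% ± 1.1, in an intron spliced only in decay forms, and the helicase gene DDX5 at 99.0% ± 0.38. Genes known for detained introns had 18 of 72 (25%), 12 of the 18 with an end in an exon of another form. Of these 18, 0 were called by either test (5 unadjusted in each), and SRSF5 stood at 95.1% ± 1.95.

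The hnRNP genes had 22 of 156 introns (14.1%) mostly retained, 2 called higher and 3 different among clones. HNRNPH1 stood at 97.9% ± 0.015 (chr5:179617912-179620891), HNRNPA2B1 at 74.3% ± 3.4 and HNRNPA3 at 65.3% ± 1.4 in WT. The HNRNPH1 intron whose 5′ end is printed above (chr5:179616219-179617020, picked after its values were seen) was 1 of the 2, at 62.2%, 49.6% and 50.8% in WT and 68.9%, 62.8% and 59.5% in KO-2 (adjusted p = 0.0131), which overlapped. Core spliceosome genes had 9 of 80 (11.3%), 0 called by either test (1 unadjusted in each), among them SNRPA at 97.1% ± 0.35, SF1, the branch point binding protein, at 93.2% ± 2.0, and SNRNP70 at 91.9% ± 4.4. Hosts of small nucleolar RNAs had 44 of 169 (26.0%) in 18 of 22 genes, 1 called higher, 3 lower and 5 of 41 different among clones, with GAS5 at 52.6% ± 2.0. SNHG1 at intron 3 was 1 of the 3, at 70.9% ± 8.0 in WT and 56.9% ± 4.1 in KO-3 (adjusted p = 0.0077, lost at 0.354 without the WT library listed 1st and 0.101 without the KO-3 library listed 3rd). Symbols beginning RPL or RPS had 61 of 394 (15.5%), 48 of the 61 with an end in an exon of another form. Of these, 2 were called higher, 1 lower and 5 of 55 different among clones. That list goes by name and also takes in RPS6KA4, a kinase gene, and RPL13P5, a pseudogene. RPL13A had 98.0%, 98.2% and 98.2% in WT in an intron spliced only in decay forms, and clone means of 97.9% to 98.2%.

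Groups tied to the minor spliceosome stood near the 12.1% over all introns. Its protein genes had 2 of 19 (10.5%), both in RNPC3. At intron 1 RNPC3 had 64.3% ± 9.1 in WT and 58.3%, 48.8%, 60.9% and 54.3% in the clones, none past the threshold (adjusted p = 0.454 to 0.967). Genes known to hold U12-type introns had 13 of 106 (12.3%), 0 called higher and 3 lower, which were the SPCS2 pair and NCBP2, and 4 of 11 tested differed among clones. These are members of that list by gene, and the SPCS2 and NCBP2 introns have GT-AG ends with first bases that differ from the nearer U12-type motif at 4 of 8 places. In the last 40 bases NCBP2 comes within 1 mismatch of TTCCTTAAC and the SPCS2 pair within 4. The 3 introns that passed the sequence rule rose or fell past the threshold in no clone: SRSF10 had 72.6% ± 6.0 in WT and 73.6% to 80.6% in clones (adjusted p = 0.540 to 0.945), NR2C2AP 59.4% ± 9.8 and 65.4% to 73.2% (0.453 to 0.812), and GIGYF1 76.0% ± 10 and 72.8% to 83.9% (0.647 to 0.958). Decay and surveillance genes had 5 of 64 (7.81%), with NCBP2 called lower, NCBP3 at 69.6% ± 4.0 and EXOSC9 at 84.3% ± 3.1. DNA repair and cell cycle genes had 19 of 95 (20%), with RECQL5 called lower and CCNB1 at 94.1% ± 1.6. Chromatin modifier genes had 8 of 111 (7.21%), 0 called by either test (0 unadjusted by the quasi-binomial test and 2 by limma), with CHD4 at 96.0% ± 1.3, and zinc finger genes had 22 of 132 (16.7%), 0 called against WT by either test (3 unadjusted in each) and 1 among clones. For every list the members are a description beside the 12.1% over all introns, and the calls beside 63 of 1975 members called in any clone and 114 of 1746 called among clones.

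UBB differs in kind from the rest. It encodes a chain of ubiquitin repeats, and its intron 2 (chr17:16382131-16382358) is 228 bases long and was 96.9% identical to the 228 bases that follow it. Over the 302 members with the following bases readable the median identity was 26.7%. The printed ends show the repeat: the bases after the UBB intron, gtggt, match those at its start. UBB read 52.3%, 53.0% and 52.4% in WT and clone means of 52.1% to 53.4%, with 5960 spliced reads a library, the lowest level among the 10 members with the most reads. None of the clones passed against WT (adjusted p = 0.361 to 0.952). Reads from 1 repeat and reads across 2 repeats share sequence, so the counts of both forms in UBB are uncertain.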

How the data were processed

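The submitters' processing notes name cutadapt 2.0, STAR 2.7.1a and the build hg38. Which program counted junctions and tested them is not stated in the sources used here. Per the file headers, the authors deposited 1 table per clone against WT, with whole-number counts of retained and spliced junction reads, 3 libraries to a list. The deposited inclusion levels are fractions, the deposited difference is a score between -1 and 1 (clone minus WT), and the deposited p-values and adjusted p-values are the authors' own. No replicate number is attached to a value, so a library is called by its place in the list. The levels recomputed here differed from the deposited ones by at most 0.0005. Effective lengths of 262 and 131 positions scaled the reads of the members. Every listed intron had at least 20 junction reads in each library.

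Introns averaging 10 or more reads of each kind over the libraries compared were tested with a quasi-binomial model. Limma 3.58.1 (squeezeVar, R 4.3.3) shrank the dispersions to their trend with read number, floored at 1, with two-sided F tests and Benjamini-Hochberg adjustment over all introns tested, threshold 0.05. The test was run on simulated reads with planted changes, and that check did not compare it with limma. The members, gene lists and naming rule were chosen with earlier results of these data known, so no p was adjusted over a list alone. Named introns, at most 1 a gene in each part of the rule, were the 10 with the highest WT level, the 10 with the most reads, the 10 with the smallest p among clones, those called in 2 or more clones and moving 1 way in every clone (up to 10 each way), up to 3 per list, 3 on each side of the level limit, and 1 from each of the 5 genes with most members. Not every one is printed. Sequences and exon overlaps come from GENCODE 29, on hg38.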

Additional observations from a re-analysis of the deposited data

Results flagged for a closer look

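Retention differed among the 4 clones, each labelled with the same genotype, in 114 of the 2021 introns (1746 tested, F test among clones over all introns, adjusted p below 0.05). The 10 with the smallest adjusted p, at most 1 per gene, were RAC3 (5.07e-15), AL138789.1 (1.12e-14), FDPS (2.46e-13), SENP3 (8.06e-11), CLDN7 (1.01e-10), RPL10 (4.77e-10), JUP (7.13e-10), LUC7L3 (1.17e-08), SNHG1 (2.41e-08) and SRSF2 (9.82e-08). In AL138789.1 the clone means ran from 62.8% to 87.3%, on both sides of the WT mean of 81.2%, and in RAC3 from 34.3% to 58.4% around 50.6%. No group holds more than 3 libraries, so no library was tested for standing apart. Each was left out in turn, as given below.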

How the results depend on the processing

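No paired analysis was possible because the lists of libraries carry no replicate numbers. Limma on log2 odds left 2 introns higher and 1 lower in KO-1, 0 either way in the other clones, and 11 among clones. Centring gave 3, 6, 1 and 4 higher in the clones in order, with 18 lower in KO-1 and 36 in KO-4. With no filter 12, 25 and 21 were higher in KO-1, KO-2 and KO-4. With means of at least 50 retained and 50 spliced reads, 1, 5, 1 and 7 were higher in KO-1 to KO-4, 4 and 5 lower in KO-1 and KO-3, and 58 differed among clones. At an adjusted p of 0.01 the counts were 1, 2, 1 and 6 higher, 3 and 11 lower in KO-3 and KO-4, and 68 among clones. Among introns at 70% or more in WT, 3, 4, 1 and 4 were higher, and 5, 6 and 11 lower in KO-1, KO-2 and KO-4. By the authors' deposited adjusted p 29, 34, 8 and 48 were higher, and 16, 21 and 21 lower in KO-1 to KO-3. Leaving out 1 library gave 1 to 15, 0 to 29, 1 to 3 and 5 to 36 higher in KO-1 to KO-4, 6 to 14, 9 to 13, 4 to 9 and 10 to 24 lower, and 89 to 115 among clones. The median change then ran from -0.08 to 0.84, 0.11 to 0.96, -0.50 to 0.40 and 0.42 to 1.36 points. The number of members was 2034 to 2071 with 1 WT library left out, 1022 with minimums of 20 and 20 reads, 3305 with 5 and 5, and 3044 without length scaling. No named call turned direction. Of the 43 named calls against WT, 17 passed with each library left out, 36 when centred and 39 by the authors' deposited adjusted p, and of 18 among clones 14 passed with each library left out. Depth limits introns near the minimum: a tested intron can rest on 10 spliced reads a library. The cause of these differences was not tested.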
